A study of Mus musculus with 8 samples.

Results

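The thromboxane and lipoxygenase eicosanoid enzymes were examined in platelet RNA through 6 of the 43548 genes in the deposited table, named by symbol as a pathway: Pla2g4a, Ptgs1, Ptgs2, Tbxas1, Alox12 and Alox5ap. Platelet RNA came from 4 TNFdARE mice and 4 littermate control mice, all 8 to 12 weeks old, at baseline and on a C57BL/6J background, with 2 females and 2 males in each group by the labels. TNFdARE mice carry a Tnf gene without its AU-rich elements in every cell of the body and therefore have constitutively high TNF-α, with arthritis and inflammatory bowel disease that begin before the age studied. The control mice do not carry this allele, the number of mutant copies in the TNFdARE mice is not given in the labels, and all 8 libraries have the same batch label. The comparison addresses whether the transcripts of this pathway differ in platelets made under lasting TNF-α exposure.

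Eicosanoids are signalling lipids made from arachidonic acid. In platelets, cytosolic phospholipase A2 releases arachidonic acid from membranes, cyclooxygenase converts it to prostaglandin H, and thromboxane synthase turns that into thromboxane A2, which activates further platelets and narrows vessels. A separate branch runs through 12-lipoxygenase, the platelet lipoxygenase. Cyclooxygenase-1 is the constitutive isoenzyme and the platelet target of aspirin, whereas cyclooxygenase-2 is induced by inflammatory signals in many other cells. Platelets have no nucleus, so their RNA is inherited from megakaryocytes (MKs).

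The genes are listed on the mm10 (GRCm38) assembly of GENCODE M21. Ptgs1, which encodes cyclooxygenase-1, lies at chr2:36230426-36252272 on the plus strand and its longest transcript has 11 exons. Ptgs2, which encodes cyclooxygenase-2, lies at chr1:150100031-150108227 on the plus strand with 10 exons. Pla2g4a, which encodes cytosolic phospholipase A2, lies at chr1:149829618-149961290 on the minus strand, on the same chromosome as Ptgs2. Tbxas1, which encodes thromboxane synthase, lies at chr6:38875404-39084585 on the plus strand with 12 exons. Alox12, which encodes 12-lipoxygenase, lies at chr11:70241457-70255353 on the minus strand with 14 exons. Alox5ap, which encodes the membrane protein that presents arachidonic acid to 5-lipoxygenase, lies at chr5:149264767-149288153 on the plus strand with 5 exons. All 6 are protein-coding genes.

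The promoters of Ptgs1 and Ptgs2 are shown because these isoenzymes catalyse the same reaction but differed in their listed values. Ptgs1 was above 0 in all 8 libraries, and Ptgs2 was listed at 0 in all 8. The sequences are the 250 bases before the RefSeq transcription start on GRCm38.p6, at chr2:36230176-36230425 for Ptgs1 and chr1:150099781-150100030 for Ptgs2, both on the plus strand, written 5′ to 3′ in lower case with the searched motifs in capitals.
Ptgs1: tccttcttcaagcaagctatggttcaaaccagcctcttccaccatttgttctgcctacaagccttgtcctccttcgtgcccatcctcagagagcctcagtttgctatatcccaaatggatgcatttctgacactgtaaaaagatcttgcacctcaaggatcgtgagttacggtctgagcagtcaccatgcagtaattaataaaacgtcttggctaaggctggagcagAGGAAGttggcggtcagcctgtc
Ptgs2: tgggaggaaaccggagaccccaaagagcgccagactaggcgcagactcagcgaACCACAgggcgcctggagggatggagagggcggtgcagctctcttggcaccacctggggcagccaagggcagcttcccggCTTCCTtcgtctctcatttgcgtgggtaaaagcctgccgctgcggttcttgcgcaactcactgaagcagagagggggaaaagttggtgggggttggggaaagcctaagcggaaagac
Short motifs of factors active in MKs or of the core promoter were searched on both strands: AGATAA for GATA factors, AGGAAG for ETS factors, TGTGGT for RUNX factors and TATAAA for the TATA box. The Ptgs1 window held 1 ETS match on the plus strand, 23 bases before the start. The Ptgs2 window held an ETS match, here as CTTCCT, 117 bases before the start and a RUNX match, here as ACCACA, 197 bases before it. Of the 32544 RefSeq promoters of this length, 9.97% held the GATA motif, 29.6% the ETS motif, 14% the RUNX motif and 12.3% the TATA motif. Promoter entries were matched for 5 of the 6 genes, all except Alox5ap, and none of these 5 held the GATA motif. The Tbxas1 window held ETS and TATA matches between 11 and 24 bases before the start, the second of 2 Pla2g4a windows held an ETS match 13 and a TATA match 200 bases before its start, and the first Pla2g4a window and the Alox12 window held no match. A match describes letters in the window and is not evidence of a bound site.

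The 8 libraries differed widely from each other. Their summed value in FPKM, which corrects for the length of a transcript and the size of the library, ran from 46047 to 99469.5, between 818 and 4917 genes were above 0, and 1 abundant transcript held 33.7% to 67.7% of each sum. TNFdARE mouse 1 had the highest sum, the fewest genes above 0 and the highest share of that transcript. How many reads lie behind each library is not known here, and Hprt, which most cells express, was listed at 0 in all 8 libraries, so a listed 0 does not show absence of a transcript. Of 16 platelet and MK markers, 14 to 16 were above 0 in each library, with Treml1 at 0 in TNFdARE mouse 1 and F2rl3 above 0 in control mouse 4 alone, and with summed levels of 1244 to 1737 FPKM in control mice and 1192 to 1319 FPKM in TNFdARE mice. None of the 15 markers tested reached an unadjusted p under 0.05 in limma, against 4.5% of all 1534 genes tested. Clec1b was the marker whose groups did not overlap, at 14.8 to 47.1 FPKM in control and 49.9 to 61.2 FPKM in TNFdARE mice. It had p = 0.029 in a two-sided exact permutation test and an unadjusted p of 0.14 in limma. Full separation of the groups was seen for 3.32% of all genes tested. Because these are bulk samples, fewer cells of a type and less RNA per cell cannot be told apart.

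The 6 genes fell into those readily measured and those at or near 0. Alox12, Alox5ap, Ptgs1 and Tbxas1 had a mean FPKM of at least 1 and were tested, Pla2g4a was above 0 in 3 libraries but below that limit, and Ptgs2 was listed at 0 throughout. None of the 4 genes tested differed between genotypes beyond the spread between mice. All 4 had a lower mean in TNFdARE mice on the log2(FPKM + 1) scale, where 966 of the 1534 genes tested, or 63.0%, also lay lower. The median log2 difference was -0.86 for the 4 genes and -0.30 for all genes tested, and without TNFdARE mouse 1 these were -0.34 and -0.14. Fold changes on this scale understate the change of genes with low FPKM.

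In the comparison of TNFdARE with control mice by limma, 0 of the 4 genes had an unadjusted p under 0.05, against 69 of 1534 genes, or 4.5%, in either direction and 42, or 2.74%, in the lower direction alone. With Benjamini-Hochberg adjustment in limma, 0 of the 4 genes and 0 of all 1534 genes, or 0%, had an adjusted p under 0.05, and the smallest adjusted p was 0.86. The groups overlapped for each of the 4 genes, whereas they were fully separated for 51 genes, or 3.32%.

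Release of arachidonic acid was represented by Pla2g4a, the calcium-dependent phospholipase that supplies both branches. Control mice 1 to 4 had 0, 0.308, 0 and 0.206 FPKM, and the TNFdARE mice had 0, 0, 0.133 and 0 FPKM in the same order. The 3 values above 0 came from 2 control mice and 1 TNFdARE mouse, all far below the level of the other measured enzymes. The groups overlapped, and the two-sided exact permutation test gave p = 0.43 with n = 4 per group. The smallest p that 4 against 4 mice can give in this test is 0.029. For Pla2g4a it could not fall under 0.05, because only 3 values were above 0 and the rest were tied. The p of 0.43 therefore says nothing about a difference in Pla2g4a.

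Ptgs1, the constitutive cyclooxygenase, was above 0 in every library. Control mice 1 to 4 had 18.9, 29.4, 7.39 and 24.5 FPKM, with a mean of 20.04 ± 9.46 (SD, n = 4). TNFdARE mice 1 to 4 had 2.29, 11.3, 8.43 and 19.7 FPKM, with a mean of 10.4 ± 7.22 (SD, n = 4). The lowest value was that of TNFdARE mouse 1, yet control mouse 3 lay below TNFdARE mice 2, 3 and 4, so the groups overlapped. The log2 fold change was -1.01 with an SE of 0.68 and a 95% confidence interval from -2.48 to 0.46 (limma, unadjusted p = 0.16, Benjamini-Hochberg adjusted p = 0.86), and the exact permutation p was 0.23. Without TNFdARE mouse 1 it was -0.50, with a 95% confidence interval from -1.73 to 0.72. Ptgs1 shares 150 identical bases with Gm43621, an annotated transcript on the opposite strand within the same locus.

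Ptgs2, the inducible cyclooxygenase, was listed at 0 in all 4 control and all 4 TNFdARE libraries. No fold change can be given for it, and the constitutively raised TNF-α of the TNFdARE mice was accompanied by no listed Ptgs2 value above 0 in platelet RNA. A listed 0 without known depth sets no upper limit on its level.

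Tbxas1, the thromboxane synthase, had 2 high values, 1 in each group. In control mice 1 to 4 it stood at 5.00, 26.3, 6.11 and 5.55 FPKM, with a mean of 10.7 ± 10.4 (SD, n = 4). In the TNFdARE mice it stood at 11.6, 4.33, 3.22 and 2.69 FPKM in mouse order, with a mean of 5.46 ± 4.14 (SD, n = 4). Outside control mouse 2 and TNFdARE mouse 1, every TNFdARE value lay below every control value, but these exceptions were seen in the data and no test was made without both. The log2 fold change over all 8 mice was -0.72 with an SE of 0.70 and a 95% confidence interval from -2.22 to 0.79 (limma, unadjusted p = 0.32, Benjamini-Hochberg adjusted p = 0.86), and the exact permutation p was 0.37. It was -0.20 without control mouse 2 and -1.10 without TNFdARE mouse 1. Hipk2, a kinase gene that overlaps Tbxas1 on the opposite strand, was also highest in control mouse 2, at 2.68 FPKM, and lay at 0 to 1.31 FPKM in the other libraries. In TNFdARE mouse 1, where Tbxas1 was at 11.6 FPKM, Hipk2 was at 0.0111 FPKM. Whether strand was used in the authors' counting is not stated, and the part of Hipk2 in the Tbxas1 values was not tested.

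Alox12, the platelet 12-lipoxygenase, was the most abundant of the 6 genes. The values for control mice 1 to 4 were 30.6, 31.4, 46.6 and 34.5 FPKM, with a mean of 35.8 ± 7.41 (SD, n = 4). Those for TNFdARE mice 1 to 4 were 6.45, 35.4, 31.1 and 27.7 FPKM, with a mean of 25.2 ± 12.9 (SD, n = 4). TNFdARE mice 2, 3 and 4 lay within or just below the control range, and TNFdARE mouse 1 lay far below it. The log2 fold change was -0.70 with an SE of 0.57 and a 95% confidence interval from -1.94 to 0.54 (limma, unadjusted p = 0.25, Benjamini-Hochberg adjusted p = 0.86), and the exact permutation p was 0.26. Without TNFdARE mouse 1 the log2 fold change was -0.17, with a 95% confidence interval from -0.79 to 0.45.

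Alox5ap, whose protein is known for leukotriene synthesis in leukocytes, was above 20 FPKM in 7 of the 8 libraries. The control libraries gave 35.4, 22.5, 36.6 and 20.3 FPKM for mice 1 to 4, and the TNFdARE libraries gave 0, 28.2, 26.9 and 25.6 FPKM. TNFdARE mice 2, 3 and 4 all lay inside the control range, and TNFdARE mouse 1 was the single library in which the gene was listed at 0. The log2 fold change was -1.25 with an SE of 0.95 and a 95% confidence interval from -3.29 to 0.80 (limma, unadjusted p = 0.21, Benjamini-Hochberg adjusted p = 0.86), and the exact permutation p was 0.43. Without TNFdARE mouse 1 the log2 fold change was -0.04, with a 95% confidence interval from -0.76 to 0.67.

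**Figure D1:**
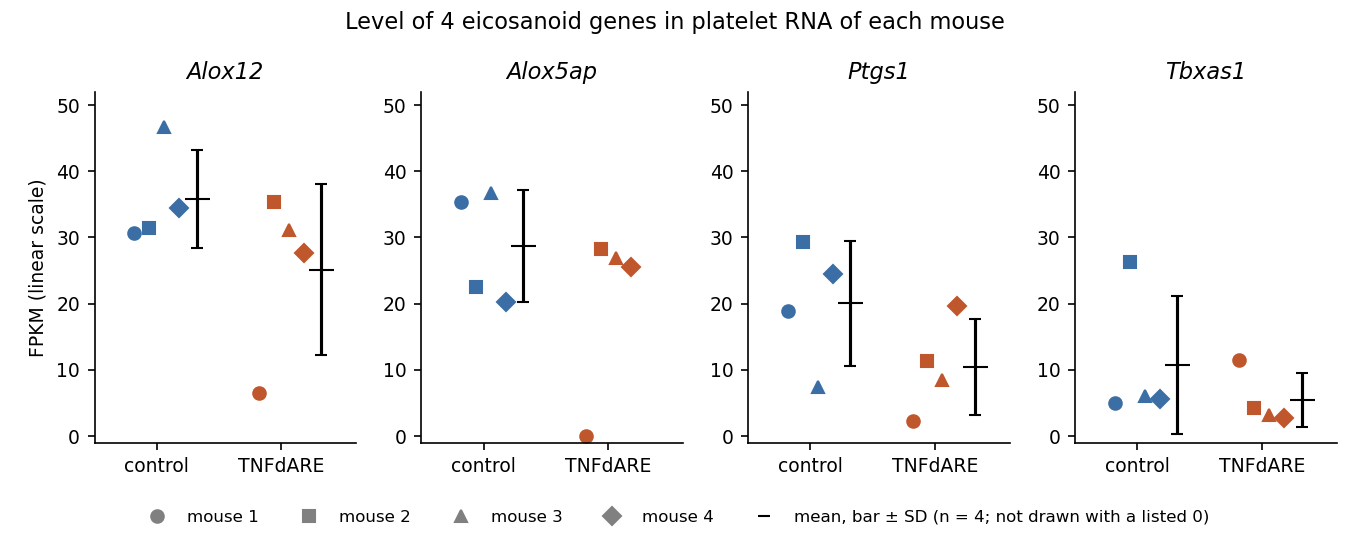
FPKM on a linear axis for Alox12, Alox5ap, Ptgs1 and Tbxas1 in each of the 4 control (blue) and 4 TNFdARE (orange) mice, with symbols for the mouse number within a group and bars for the mean ± SD where no value is a listed 0. The groups overlap for every gene, TNFdARE mouse 1 is lowest for Alox12, Alox5ap and Ptgs1, and control mouse 2 is highest for Tbxas1 at 26.3.

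**Figure D2:**
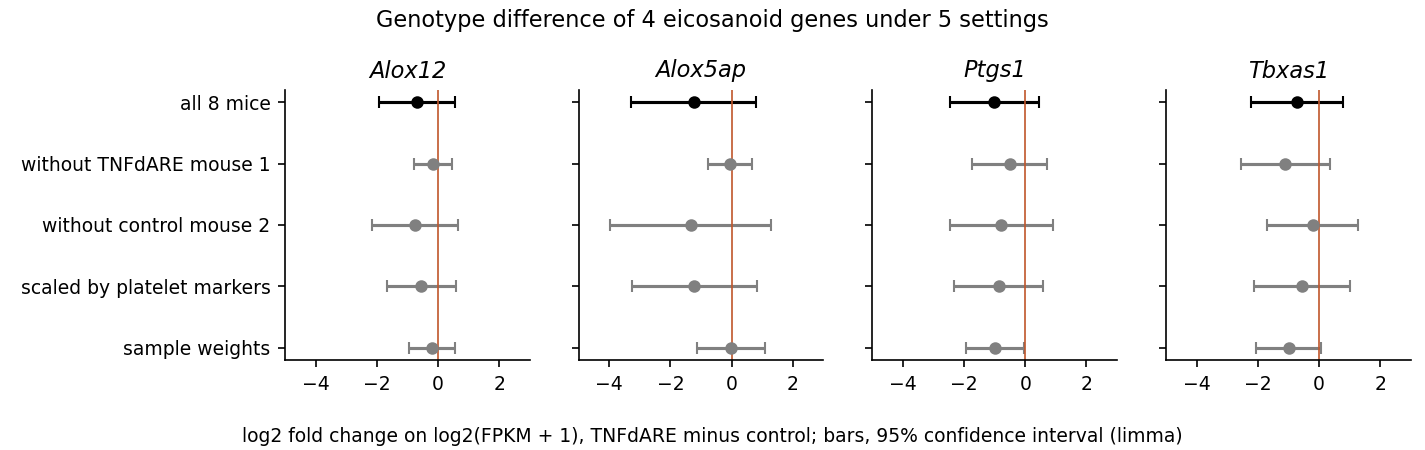
Log2 fold change of TNFdARE against control mice on log2(FPKM + 1), on the horizontal axis, for the same 4 genes under 5 settings, with 95% confidence intervals from limma. Every point lies below 0, Alox12 and Alox5ap move to -0.17 and -0.04 without TNFdARE mouse 1, and only Ptgs1 with sample weights has an interval that ends just below 0.

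Markers of leukocytes that also make eicosanoids were sparse in these libraries. Of 11 neutrophil markers, 7 were listed at 0 in all 8 libraries, including S100a8, Ly6g and Csf3r, and the summed level was 0 FPKM in the control mice and 0 to 10.3 FPKM in the TNFdARE mice. Monocyte and macrophage markers had summed levels of 30.8 to 50.8 FPKM in control mice and 12.0 to 36.1 FPKM in TNFdARE mice. Nearly all of this sum was Lyz2, a lysozyme gene, and the defining markers Ly6c2, Ccr2, Cd68 and Fcgr1 were at 0 in every library. Of 7 mast cell and basophil markers, Hdc and Gata2 were above 0, with sums of 0.564 to 5.12 FPKM in control mice and 0.346 to 6.65 FPKM in TNFdARE mice, and Cpa3, Fcer1a, Ms4a2, Mcpt8 and Prss34 were at 0. B cell sums reached 2.09 FPKM, T cell sums 0.822 FPKM and eosinophil sums 0.551 FPKM, each from 1 listed marker. The monocyte and macrophage sum was in the same range as Alox5ap and, like Alox5ap, lowest in TNFdARE mouse 1. The part of leukocyte RNA in the values of the enzymes was not tested.

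The level of each enzyme was also placed within its own library, as a rank, which needs no scaling between libraries. In the control mice Alox12 was above 88.7% to 95.8% of the genes with a value above 0, Alox5ap above 90.8% to 94.7%, Ptgs1 above 78.6% to 94.6% and Tbxas1 above 58.1% to 92.5%. TNFdARE mice 2, 3 and 4 gave 86.4% to 97.5% for Alox12, 85.2% to 97.1% for Alox5ap, 81.3% to 92.6% for Ptgs1 and 42.1% to 85.3% for Tbxas1. In TNFdARE mouse 1 the order was different, with Tbxas1 above 63.9% of genes, Alox12 above 46.8% and Ptgs1 above 25.7%, at rank 608 of 818. These percentages depend on how many genes were above 0, which was lowest in that library. By rank itself, Ptgs1 was at 608 in TNFdARE mouse 1 and at 148 to 493 in the other libraries, and Alox12 was at 435 against 100 to 167.

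**Figure D3:**
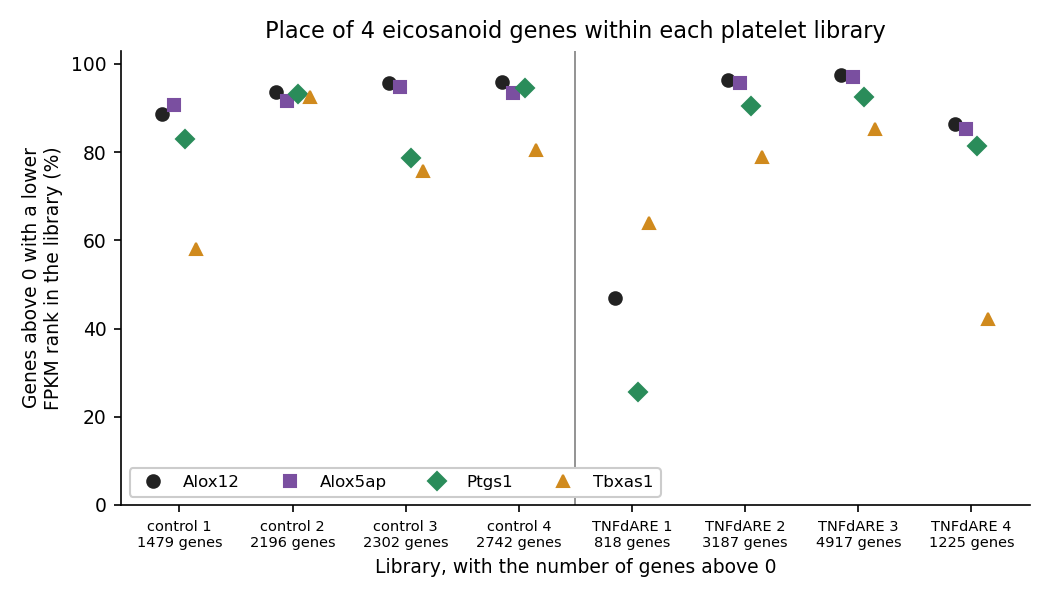
Share of the genes above 0 in a library that rank below each enzyme, in percent, for the 8 libraries with their number of genes above 0. Alox12, Alox5ap and Ptgs1 lie at 78.6% or more in 7 libraries, whereas in TNFdARE mouse 1 Alox12 is at 46.8%, Ptgs1 is at 25.7% and Alox5ap has no point because it was listed at 0.

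Ratios between enzymes of the same library were compared as differences of log2(FPKM + 1). Ptgs1 lay below Alox12 in 8 of 8 libraries, by -2.50 to -0.10 in control mice and -1.77 to -0.48 in TNFdARE mice, so these ranges overlapped. Ptgs1 lay above Tbxas1, the next enzyme in the thromboxane branch, in 7 of 8 libraries, with differences of 0.15 to 1.96 in control mice and 1.16 to 2.49 in TNFdARE mice 2, 3 and 4, and of -1.94 in TNFdARE mouse 1. Alox12 and Alox5ap were close to each other, with differences of -0.20 to 0.74 in control mice and 0.11 to 0.32 in TNFdARE mice 2, 3 and 4. The difference was 2.90 in TNFdARE mouse 1, where Alox5ap was listed at 0. That value depends on the 1 added to each FPKM and is not a ratio of measured levels. Alox12 lay above Alox5ap in 7 of 8 libraries, with control mouse 1 as the exception, and above Tbxas1 in 7 of 8, with TNFdARE mouse 1 as the exception. The order of these levels was not tested.

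The genotype difference was also fitted within each sex, with 2 mice per genotype and sex. It was -0.50 in females and -1.52 in males for Ptgs1, -0.50 and -0.93 for Tbxas1, -0.05 and -1.35 for Alox12, and 0.00 and -2.49 for Alox5ap, on the log2 scale. The interaction of genotype with sex in limma gave unadjusted p = 0.47, 0.77, 0.31 and 0.17 in the same order, with Benjamini-Hochberg adjusted p of 0.92 to 0.95. The values in males include those of TNFdARE mouse 1, a male, and 0 of 1534 genes passed the adjusted threshold for this interaction while 54 had an unadjusted p under 0.05.

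Genes with the most similar profile over the 8 libraries were found by the root mean square difference of log2(FPKM + 1), after removal of each gene's mean, among 977 genes above 0 in at least 5 libraries. For Alox12 they were Fermt3 at 0.21, which encodes the integrin activator kindlin-3 of blood cells, Slc24a3 at 0.24, a cation exchanger gene, and Hdgfrp3 at 0.24. Fermt3 had 28.0, 28.3, 33.1 and 26.0 FPKM in the control libraries and 5.35, 27.6, 25.4 and 33.1 FPKM in the TNFdARE libraries, each in mouse order, and so shared the low value of TNFdARE mouse 1. For Alox5ap they were Aes at 0.34, Pfn1 at 0.36, which encodes the actin-binding protein profilin-1, and Lamp1 at 0.41, a lysosomal membrane protein gene, and all 3 were listed at 0 in TNFdARE mouse 1. For Ptgs1 they included 1700020I14Rik at 0.38 and Mapk14 at 0.44, the gene of p38α kinase. For Tbxas1 they were Adam10 at 0.49, a membrane protease gene, Fam168b at 0.54 and Smim14 at 0.57, each highest in control mouse 2. The 4 enzymes themselves varied by 0.76 for Alox12, 0.88 for Tbxas1, 0.99 for Ptgs1 and 1.62 for Alox5ap on the same measure.

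The rest of the eicosanoid pathway was read from a list of 64 genes by role, of which 60 had an entry, 20 had a value above 0 in some library and 6 were tested. Ptger1 passed the filter through the control mice alone, with a mean of 2.22 FPKM there and 0.428 FPKM in TNFdARE mice, so its lower value was favoured by the filter and the counts and median that include it are given as description. Values of these genes are given in the order of mice 1 to 4. Of these 6, 1 was higher and 5 were lower in TNFdARE mice, where 63.0% of all genes tested lay lower, 1 had an unadjusted p under 0.05, against 4.5% of all genes tested, 0 had an adjusted p under 0.05 in limma, and the median log2 fold change was -0.68, against -0.30 for all genes tested. At a mean FPKM of at least 5, only Pla2g12a (-1.58) and Gpx1 (1.40) of the list remained. Their median was the midpoint of these opposite values, -0.09, against -0.27 for all genes tested. With a pseudocount of 0.1 the medians were -1.48 for the list and -0.44 for all genes tested.

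Among 13 genes of arachidonic acid release and recycling, 8 were above 0 and 3 were tested. Mboat7, which returns arachidonic acid to membrane phosphatidylinositol, had 6.60, 4.61, 3.42 and 4.29 FPKM in the control libraries and 0, 3.64, 3.05 and 0 FPKM in the TNFdARE libraries. Of the TNFdARE mice only mouse 2 reached into the control range, and the log2 fold change of -1.43, with an SE of 0.74, did not pass (limma unadjusted p = 0.074, Benjamini-Hochberg adjusted p = 0.86, exact permutation p = 0.057). Pla2g12a, a secreted phospholipase A2 gene, had 4.40, 7.69, 8.53 and 8.22 FPKM in the control libraries. It had 0, 10.3, 3.55 and 0 FPKM in the TNFdARE libraries. The groups overlapped, and TNFdARE mouse 2 was the highest of all 8 mice. Its log2 fold change was -1.58 with an SE of 0.83 (limma unadjusted p = 0.079, exact permutation p = 0.2). Both genes were listed at 0 in TNFdARE mice 1 and 4, the 2 libraries with the fewest genes above 0. With each library's number of genes above 0 in the limma model, the log2 fold change was -1.61 for Mboat7 (unadjusted p = 0.030) and -1.83 for Pla2g12a (unadjusted p = 0.023), in a fit where 106 of all genes tested had an unadjusted p under 0.05, against 69 without that term. With sample weights it was -0.50 for Mboat7 and -0.66 for Pla2g12a, with unadjusted p = 0.33 and 0.29, and neither gene passed the adjusted threshold in any setting run. Pnpla8, a calcium-independent phospholipase gene, had 2.91, 18.1, 0.876 and 2.12 FPKM in the control libraries and 9.60, 3.70, 2.43 and 0 FPKM in the TNFdARE libraries, with a log2 fold change of -0.34 and an SE of 0.90, and its groups overlapped widely. Like Tbxas1, it was highest in control mouse 2 and, within the TNFdARE group, in mouse 1.

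The other enzymes downstream of cyclooxygenase and lipoxygenase were nearly all listed at 0. Of 9 prostanoid synthase genes in the table, Ptges3 and Cbr1 were above 0, in 2 and 1 libraries, and the synthases Ptges, Ptgds, Hpgds and Ptgis were at 0 in all 8. Of 13 lipoxygenase and leukotriene genes in the table, Mgst2 alone was above 0, in 2 TNFdARE libraries. Alox5, the lipoxygenase with which the Alox5ap product works, and the leukotriene enzymes Lta4h and Ltc4s were listed at 0 in all 8 libraries, beside Alox5ap values above 20 FPKM in 7 of them. The thromboxane receptor gene Tbxa2r was also listed at 0 in all 8 libraries. Of the 14 receptor genes, Ptger1, Ptgir, Cysltr2 and Ltb4r2 were above 0, and only Ptger1, a prostaglandin E2 receptor gene, was tested, with 0, 3.96, 2.84 and 2.08 FPKM in the control libraries and 0, 0.997, 0.715 and 0 FPKM in the TNFdARE libraries. Control mouse 1 and TNFdARE mice 1 and 4 were listed at 0, and the groups overlapped.

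Gpx1 and Gpx4, the glutathione peroxidases that reduce lipid peroxides such as the product of 12-lipoxygenase, were both tested. Gpx1 had 16.9, 16.9, 32.1 and 24.3 FPKM in the control libraries and 104, 24.3, 41.0 and 115 FPKM in the TNFdARE libraries. TNFdARE mice 1 and 4 were far above all other libraries, and TNFdARE mouse 2 lay inside the control range. The log2 fold change was 1.40 with an SE of 0.57 and a 95% confidence interval from 0.16 to 2.63, and it passed the unadjusted but not the adjusted threshold (limma unadjusted p = 0.029, Benjamini-Hochberg adjusted p = 0.86, exact permutation p = 0.057). The unadjusted p was no longer under 0.05 in 6 of 21 alternatives, among them sample weights, with a log2 fold change of 0.70, and leaving out any 1 of 4 mice (control mouse 1 or 2, TNFdARE mouse 1 or 4). Erythroid markers moved with it, with 10 of 11 above 0. Of the 7 tested, 6 were higher in TNFdARE mice at an unadjusted limma p under 0.05, against 4.5% of all genes tested. After adjustment 0 passed, as among all genes tested. Fech, among these 6, passed the filter through the TNFdARE mice alone, with a mean of 4.28 FPKM there and 0.522 FPKM in control mice. Its higher value was thus favoured by the filter, and the count that includes it is given as description. The summed levels of the erythroid markers were 755 to 2204 FPKM in control mice and 1111 to 14672 FPKM in TNFdARE mice. TNFdARE mouse 1 had 6929 FPKM and TNFdARE mouse 4 had 14672 FPKM. Red cell precursors express Gpx1, and the part of erythroid RNA in its difference was not tested. Gpx4 had a log2 fold change of -0.10 with an SE of 0.91, with 0 to 8.26 FPKM in control mice and 0 to 5.52 FPKM in TNFdARE mice.

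**Figure D4:**
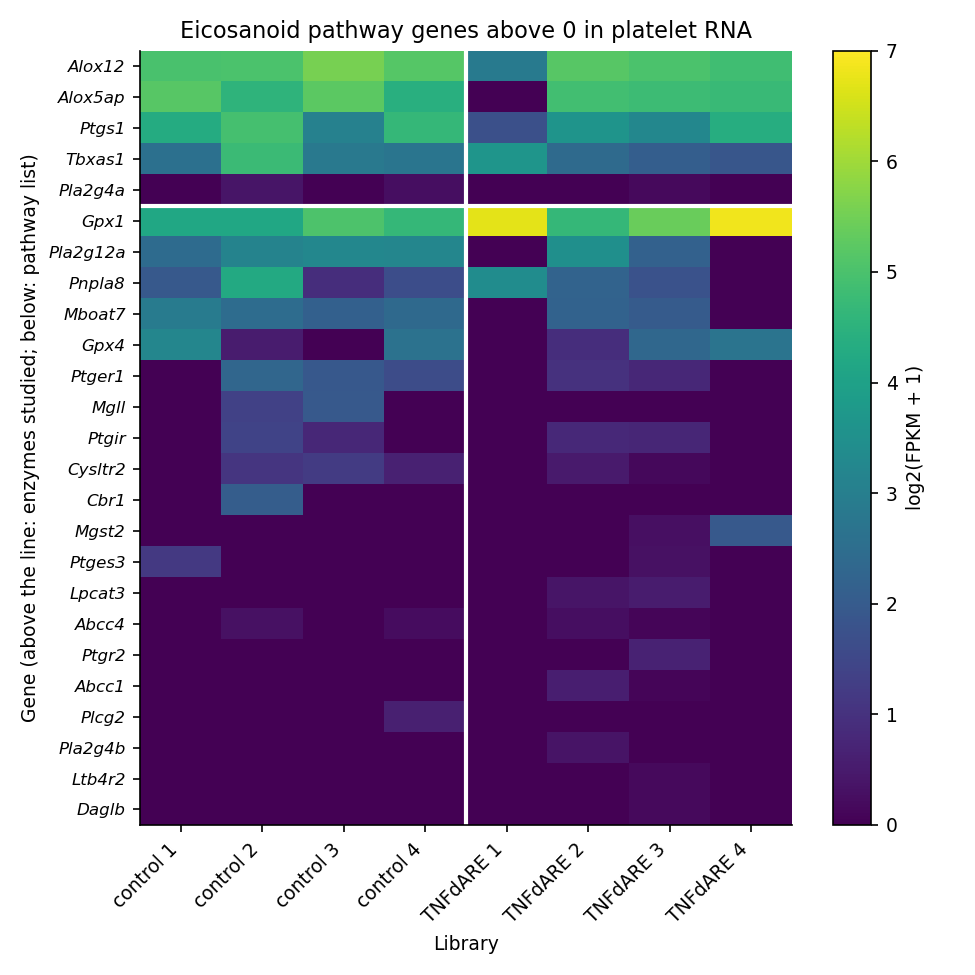
Colour scale of log2(FPKM + 1) for the 5 enzymes studied that were above 0 (above the white line) and the 20 genes of the pathway list above 0 (below it), in the 4 control and 4 TNFdARE libraries. Alox12, Alox5ap, Ptgs1 and Gpx1 carry most of the signal, Gpx1 is brightest in TNFdARE mice 1 and 4, and most other genes are listed at 0 in several libraries.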

How the data were processed

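RNA from washed platelets was sequenced by the authors as 150 bp reads, and the labels name Cufflinks and mm10, while versions, the annotation, strandedness and the treatment of reads shared between genes are not given in the sources used here. For each gene and mouse the authors deposited a single normalized value, read here as FPKM: the column totals are unequal, and positive values far below 1 occur. These are not counts, so no count model was used, and precision rests on 4 mice per group. The descriptions of the samples also speak of 3 mice per group and of males aged 5.2 months. The methods' number and ages and the labels' sexes were used. Value columns not mapped to a mouse numbered 0.

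The filter kept genes whose FPKM averaged 1 or more across all 8 libraries. The genotypes were compared in limma 3.58.1 (R 4.3.3) on log2(FPKM + 1), with a trend and Benjamini-Hochberg adjustment over all 1534 genes, and single genes with a two-sided exact permutation test. The procedure was also run on simulated data, whose outcome is not reported here. Replicates are separate mice by the labels. Named genes were the 6 enzymes, pathway genes that passed the filter or had an unadjusted p under 0.05, and the 3 genes most like each tested enzyme, without predicted genes. Not every gene found by this rule is reported here. Other pathway and marker genes are named beside the results they bear on. The enzymes and lists were chosen with earlier results of these data known. Alternatives were pseudocounts of 0.1 and 5, no filter, a filter at a mean of 5 FPKM, 4 other scalings, limma without a trend, sample weights, sex, the number of genes above 0, the replicate number as a block, and leaving out each mouse. Positions are from GENCODE M21, which held 42470 of the 43548 identifiers, promoters are from RefSeq on GRCm38.p6, and shared sequence of at least 150 bases at 95% identity was found with BLAST 2.17.0. The spatial data were not analysed here. Figures were drawn with matplotlib 3.10.9 in Python 3.11.15.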

Additional observations from a re-analysis of the deposited data

Results flagged for a closer look

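In groups of 4 mice, the gap between the most extreme mouse and its nearest neighbour was divided by the range of the group and compared with Dixon's 95% critical value. Of 22 groups examined, 4 exceeded it, and chance exceeds it in about 1 of 20 groups of independent, normally distributed values. That rate cannot be set against the 4, since 3 equal values of 0 fix the ratio for Pla2g4a and Tbxas1 and Pnpla8 come from the same mouse. Tbxas1 in control mouse 2 gave 0.948, at 26.3 FPKM against 6.11 FPKM in the nearest control mouse. Pnpla8 in the same mouse gave 0.882, at 18.1 FPKM against 2.91 FPKM. Alox5ap in TNFdARE mouse 1 gave 0.907, being listed at 0 against 25.6 FPKM in the nearest TNFdARE mouse. Pla2g4a in TNFdARE mouse 3 gave 1, at 0.133 FPKM against 0 in the other TNFdARE mice, which is a single low value.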

How the results depend on the processing

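Alox12, Alox5ap, Ptgs1 and Tbxas1 stayed lower in TNFdARE mice under each of 21 alternatives, with log2 fold changes of -0.93 to -0.17, -2.06 to -0.02, -1.40 to -0.50 and -1.10 to -0.20. An unadjusted limma p under 0.05 was reached by 1 of these, Ptgs1 with sample weights, at -0.995 (unadjusted p = 0.043, adjusted p = 0.66). The weights gave TNFdARE mouse 1 a weight of 0.236 and TNFdARE mouse 3 a weight of 5.03. Genes with an unadjusted p under 0.05 numbered 36 at a mean FPKM of at least 5, where fewer genes were tested, 111 with sample weights, 106 with each library's count of genes above 0 in the model, and 46 to 75 when each mouse was left out. None passed adjustment in limma under any alternative run. The median of all genes tested was -0.30, and -0.06 after quantile normalization, -0.01 with sample weights and 0.01 without a filter, while that of the 4 enzymes was -0.86, -0.67, -0.59 and -0.86 in the same order. Pathway genes changed sign in some settings, and the cause was not tested. Leaving out each mouse gave -0.86 to 0.35 for Pnpla8 and -0.63 to 0.44 for Gpx4, which was at 0.17 with sample weights. Gpx1 was at 0.70 with sample weights, with an unadjusted p of 0.10, and 1.08 to 1.81 when each mouse was left out, with an unadjusted p of at least 0.05 when the mouse left out was number 1 or 2 of the controls or number 1 or 4 of the TNFdARE group, and of 0.057 in limma without a trend. Pla2g12a and Mboat7 stayed lower in each setting run, at -3.17 to -0.66 and -3.004 to -0.50, with an unadjusted p under 0.05 in 2 settings each. Same-numbered mice did not deviate together, with correlations of 0.060, -0.062, 0.024 and -0.067. Of the 4 control mice, 1 correlated best with its own number. Library names also share a number between control mouse 1 and TNFdARE mouse 1, and between control mouse 4 and TNFdARE mouse 3. Their correlations were 0.060 and 0.042, and the names do not say what these numbers stand for. The replicate block gave 64 genes with an unadjusted p under 0.05 and changed no call of the 4 enzymes. Pnpla8, Mboat7, Gpx4 and Ptger1 have no value at a mean FPKM of at least 5. The unknown number of reads limits what a listed 0 can show.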
